A study of Homo sapiens with 4 samples.

Results

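Glycolysis and hypoxia-response genes were described as a set of 38 genes chosen by name: the enzymes that turn glucose into pyruvate and lactate, the transporters that carry glucose in and lactate out, the enzymes that set the rate of the pathway, and the hypoxia-inducible factors (HIFs) with their hydroxylases and target genes. Naming the probes by RefSeq accession paired a probe with 37 of the 38, of 19480 genes with a probe. No probe was paired with ALDOA in this way, so this aldolase was not analysed here. That does not mean that the array lacks a probe for it. Where a gene had several probes, the brightest stood for it.

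The cells were TR9_MeTA14 and TR15_MeTA5, both derived from the human prostate cancer line LNCaP. Each carries a stably transfected Tet repressor and the construct pcDNA4/TO/NFκB (AD)-MBD, from which tetracycline induces a fusion of the NFκB activation domain to a methyl-CpG-binding domain. This approach, MeTA (activation of transcription targeted to methyl-CpG), was used to look for genes silenced by DNA methylation. Cultures of both lines were kept for 4 days in tetracycline (+Tet) or received none (-Tet), and Cy3-labeled cRNA of each of the 4 cultures was hybridized to 1 Agilent whole human genome array. The -Tet groups thus carry the repressor and the construct too. Whether each line is a single clone is not given in the sources used here, and cells given tetracycline but lacking the construct are not among the arrays used here.

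Glycolysis splits glucose into pyruvate, which lactate dehydrogenase turns into lactate when it does not enter mitochondria. The HIFs are pairs of a stable subunit and an oxygen-sensitive one, HIF-1α or HIF-2α. With oxygen present, prolyl hydroxylases mark the α subunit for destruction, and when oxygen is low it persists and activates genes of glucose uptake, glycolysis, lactate export, blood vessel growth and autophagy. Normal prostate epithelium is known for an unusual metabolism that secretes citrate, and prostate cancer cells alter it.

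The value given for an array is Feature Extraction's processed signal, the brightness of a spot after background subtraction in arbitrary units, which is not normalized between arrays. For a fold change, the signals were taken as log2 and the 75th percentile of all probes of the array was subtracted. In TR9_MeTA14 that percentile was a signal of 617 without and 777 with tetracycline, and in TR15_MeTA5 it was 367 and 542. A gene whose signal is equal on both arrays of a line is therefore 1.26-fold or 1.48-fold lower after scaling in TR9_MeTA14 and TR15_MeTA5, respectively. Changes are read within a gene, since probes differ in brightness. Apart from scaling, signals of different genes were put together only to rank the brightest genes and to sum cell type markers. In such a sum the brightest probes weigh most. A probe counted as measured where Feature Extraction marked it as well above background, and when 1 of the arrays compared did not reach that level the fold change is given as a lower bound. With 1 array per condition there is no replicate within a line and no test of a change in a line. Probes printed in several spots put the SD of a log2 ratio at 0.0861, a figure for the technical error inside an array that leaves out the spread between cultures, so precision is limited by having so few arrays. A change of at least 2-fold, the cut-off of the study, was counted. The effect of tetracycline over both lines was tested with limma, with the lines as the replicates and 1 residual degree of freedom. Its p-values and SEs rest on the spread between the 2 lines, with each probe's variance drawn toward that of probes of similar brightness. No spread between cultures of a line enters them. The fit used the scaled signals themselves, also on arrays not well above background, and not the lower bounds.

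Of the 37 genes with a probe, 36 were measured above background on both TR9_MeTA14 arrays and on the treated TR15_MeTA5 array, and 34 on the untreated TR15_MeTA5 array. CA9, the cell-surface carbonic anhydrase that is often used as a marker of hypoxia, was not above background on any array, with signals of 3.19, 3.01, 3.23 and 5.60, and no fold is given. The labelled cell type was checked against 10 markers of LNCaP cells. All 10 were well above background on both TR9_MeTA14 arrays, and 9 of 10 on both TR15_MeTA5 arrays, the exception being TRPM8. With tetracycline, 7 of the 10 were at least 2-fold lower in TR9_MeTA14, KLK2 and KLK3 among them, and the median log2 fold change was -1.80. In TR15_MeTA5, 0 of the 9 with a fold were at least 2-fold lower, and their median was -0.64. The summed signal of the 10 markers, in multiples of the array's 75th percentile, was 520 without and 183 with tetracycline in TR9_MeTA14, and in TR15_MeTA5 it was 692 and 438. Of 8 markers of other cell types, KRT5, KRT14, TP63 and COL1A2 were not above background on any array, and the summed signal of the list on the same scale was 1.27 and 2.60 in TR9_MeTA14 and 1.39 and 2.74 in TR15_MeTA5. PTPRC, CD68 and COL1A1 were well above background on every array and were the 3 with a fold in each line. CD68 was the only 1 of these 3 that was at least 2-fold higher, by 5.73-fold in TR9_MeTA14 and 2.50-fold in TR15_MeTA5. PECAM1 was above background on the +Tet arrays only. Its signals were 4.79 without and 18.0 with tetracycline in TR9_MeTA14, and 7.45 and 22.5 in TR15_MeTA5. The part that these shifts had in the values below was not tested, and in such bulk RNA fewer cells with a transcript cannot be told apart from less of it per cell.

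The glycolytic and hypoxia-response genes did not move together with tetracycline. By the 2-fold cut-off, TR9_MeTA14 had 7 higher and 12 lower genes among the 36 with a fold, and TR15_MeTA5 had 6 higher and 5 lower. The backgrounds over all genes compared in the same arrays were 16.8% higher and 15.1% lower in TR9_MeTA14, and 9.77% higher and 2.21% lower in TR15_MeTA5. The shares of the set were 19.4% and 33.3% in TR9_MeTA14 and 16.7% and 13.9% in TR15_MeTA5, so that the share of higher genes in TR9_MeTA14 was near its background. The median log2 fold change of the 36 was -0.32 in TR9_MeTA14 and -0.57 in TR15_MeTA5, beside -0.06 and -0.16 over all genes. Among the genes higher in both lines were a lactate exporter, an activator of glycolysis and a HIF subunit, whereas every enzyme from GAPDH to lactate dehydrogenase had a value below 0 in both lines, with exceptions under other scalings that are given below.

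**Figure D1:**
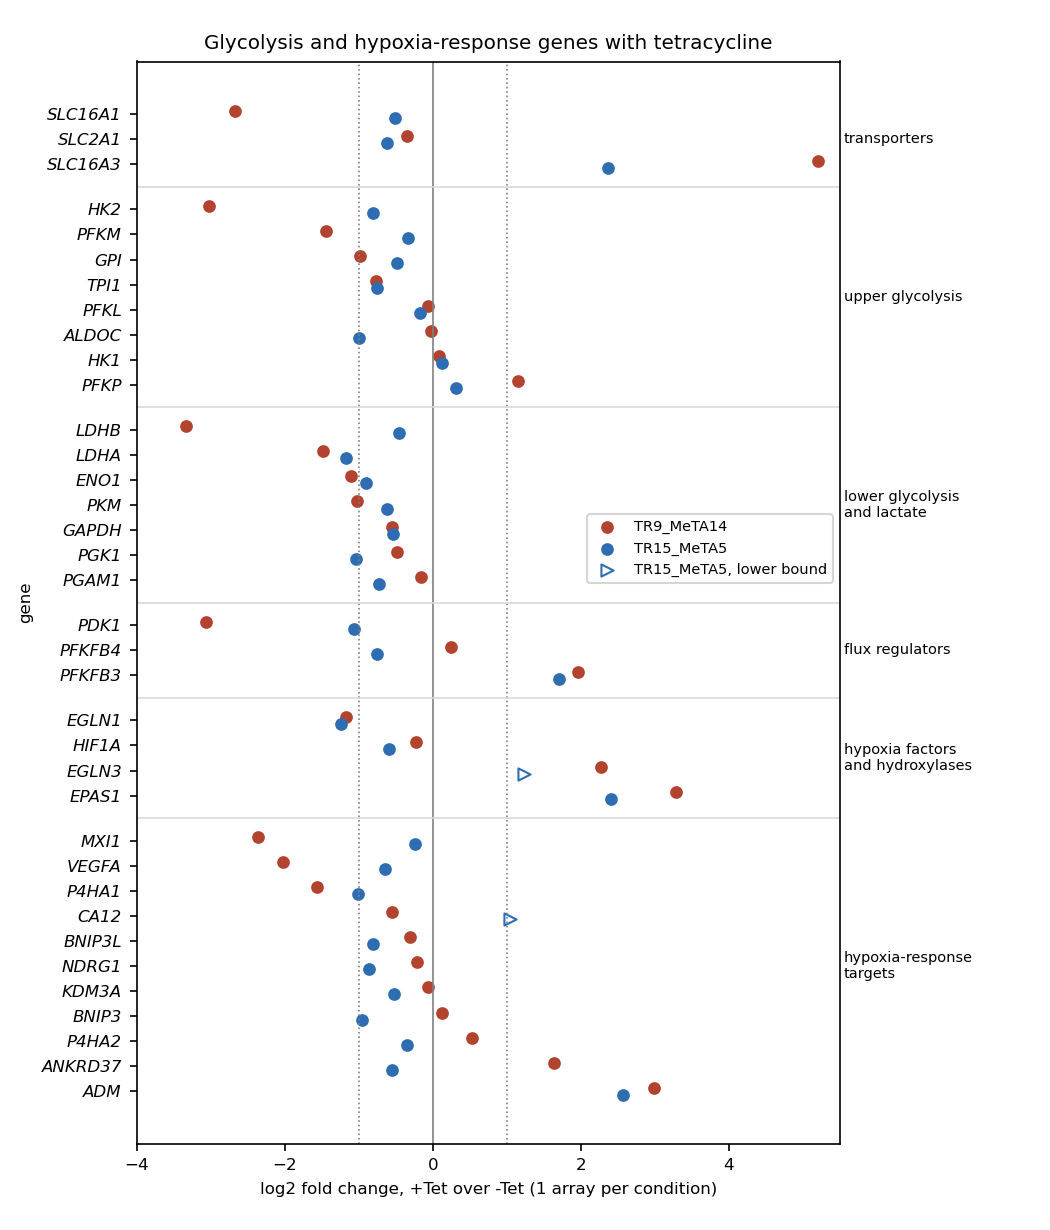
Log2 fold change with tetracycline (x axis, +Tet over -Tet) of the 36 genes with a fold, grouped by role (y axis). Each point rests on 1 array per condition, red for TR9_MeTA14 and blue for TR15_MeTA5, open triangles are lower bounds, and dotted lines mark 2-fold. In TR9_MeTA14, SLC16A3 lies farthest to the right at 5.20 and LDHB farthest to the left at -3.33, and in TR15_MeTA5 the same genes lie at 2.37 and -0.46.

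The 5 genes past 2-fold on the higher side in both lines were SLC16A3, PFKFB3, ADM, EGLN3 and EPAS1, and 8.21% of the 13976 genes with a fold in both lines were higher in both. Past 2-fold on the lower side in both lines were 4 genes, LDHA, PDK1, EGLN1 and P4HA1, where 0.837% of all genes were lower in both. The count of lower genes rests on the scaling: with the arrays scaled on spike-in probes, 0 genes of the set were lower in both lines, with quantile normalization 2, and with normexp background correction 1. Another 15 of the 36 genes of the set with a fold in both lines were within 2-fold in both, beside 9211 of the 13976 genes. By limma over both lines, 2 of the 36 tested genes rose at an adjusted p below 0.05, ADM and EPAS1, where 3.22% of 14464 genes rose. None of the 36 passed that threshold in the other direction (0 genes), and 0.0138% of all genes did. At an unadjusted limma p below 0.05, 9 of the 36 were lower, beside 1205 of the 14464 genes. These counts describe the set and were not tested against other genes.

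Since the induced protein binds methylated CpG sites, the 250 bases before the start of the 5 genes higher in both lines are shown, from RefSeq windows on GRCh38.p14, with every CpG in capitals. DNA methylation was not measured in the files used here. They lie at chr17:82228792-82229041 on the plus strand (SLC16A3, the window of its 5 with the most CpG), chr10:6144671-6144920 on the plus strand (PFKFB3, the same choice of 2), chr11:10304823-10305072 on the plus strand (ADM), chr14:33951075-33951324 on the minus strand (EGLN3) and chr2:46297157-46297406 on the plus strand (EPAS1). All 5 stretches are promoter sequence just upstream of the annotated start.
SLC16A3: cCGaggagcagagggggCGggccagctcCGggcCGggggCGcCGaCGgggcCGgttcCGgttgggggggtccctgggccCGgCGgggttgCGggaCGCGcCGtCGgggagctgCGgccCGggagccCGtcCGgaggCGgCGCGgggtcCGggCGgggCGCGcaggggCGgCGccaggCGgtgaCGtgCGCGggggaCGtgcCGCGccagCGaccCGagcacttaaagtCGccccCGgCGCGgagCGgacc
PFKFB3: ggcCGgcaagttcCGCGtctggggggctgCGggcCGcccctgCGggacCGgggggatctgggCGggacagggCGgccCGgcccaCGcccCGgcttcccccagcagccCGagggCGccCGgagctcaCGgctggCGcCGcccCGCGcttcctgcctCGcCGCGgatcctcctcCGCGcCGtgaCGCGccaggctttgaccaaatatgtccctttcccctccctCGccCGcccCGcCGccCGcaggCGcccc
ADM: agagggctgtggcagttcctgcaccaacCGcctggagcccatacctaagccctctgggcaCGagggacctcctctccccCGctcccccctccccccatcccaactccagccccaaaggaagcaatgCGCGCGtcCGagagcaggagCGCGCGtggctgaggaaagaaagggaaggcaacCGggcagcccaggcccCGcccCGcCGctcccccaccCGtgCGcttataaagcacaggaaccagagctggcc
EGLN3: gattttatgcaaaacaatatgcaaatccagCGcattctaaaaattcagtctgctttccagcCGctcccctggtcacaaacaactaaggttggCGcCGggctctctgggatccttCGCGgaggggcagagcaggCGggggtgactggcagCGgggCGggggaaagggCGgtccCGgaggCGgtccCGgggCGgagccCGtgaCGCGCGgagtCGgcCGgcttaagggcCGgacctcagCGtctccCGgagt
EPAS1: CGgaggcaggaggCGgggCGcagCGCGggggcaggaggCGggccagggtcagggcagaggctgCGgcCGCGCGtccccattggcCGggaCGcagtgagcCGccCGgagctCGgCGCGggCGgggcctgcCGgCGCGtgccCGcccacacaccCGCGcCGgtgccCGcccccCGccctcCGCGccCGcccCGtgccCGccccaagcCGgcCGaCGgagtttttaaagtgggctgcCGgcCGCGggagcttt

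The lactate dehydrogenase genes are shown in the same way for comparison, as the genes that were lower in both lines (LDHA) and that differed most between the lines (LDHB). Their windows lie at chr11:18396101-18396350 on the plus strand and chr12:21657843-21658092 on the minus strand.
LDHA: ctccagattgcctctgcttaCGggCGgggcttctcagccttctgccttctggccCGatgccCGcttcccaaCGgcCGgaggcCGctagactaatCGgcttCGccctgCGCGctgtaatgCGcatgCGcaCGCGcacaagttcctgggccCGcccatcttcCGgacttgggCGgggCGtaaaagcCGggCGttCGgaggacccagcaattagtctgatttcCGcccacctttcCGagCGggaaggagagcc
LDHB: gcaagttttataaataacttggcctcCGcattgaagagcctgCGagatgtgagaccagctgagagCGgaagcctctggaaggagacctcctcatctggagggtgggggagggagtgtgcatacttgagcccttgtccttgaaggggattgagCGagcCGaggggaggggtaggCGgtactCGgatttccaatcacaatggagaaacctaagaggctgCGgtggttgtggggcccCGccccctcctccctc

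These 250 bases held 43 CpG in SLC16A3, 34 in PFKFB3, 16 in ADM, 23 in EGLN3 and 38 in EPAS1, against 25 in LDHA and 9 in LDHB. Among these windows, that of LDHA held more CpG than those of ADM and EGLN3. For SLC16A3, PFKFB3 and LDHA, the annotated window with the most CpG was taken, without matching it to the transcript that the probe reads. Whether the number of CpG goes with the change was not tested. In the whole 300-base windows, which run to 50 bases after the start, the median over the 64 windows of the 34 genes of the set with one was 27.5 CpG, against 14 over 35116 windows of all genes. The core of the hypoxia response element was searched as ACGTG and GCGTG on both strands, the 2 motifs being scored separately. ACGTG or GCGTG was present in 67.2% of the windows of the set and in 48.4% of all windows. Both motifs contain a CpG, and these shares were not adjusted for the higher CpG content of the windows of the set. Each window was counted once in these shares and medians, so that a gene with several windows, such as HK1 with 7, entered several times. Some windows of the same gene overlap and are not independent. EGLN3, which was higher in both lines, held neither motif in its window, while the other annotated window of LDHA, which was lower in both, held ACGTG 5 times. A match to these letters is a description and not a binding site. The table used holds no window for BNIP3L, NDRG1, SLC16A1 and VEGFA.

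Among the transporters, the 2 lactate carriers had values on opposite sides of 0 in both lines. In TR15_MeTA5, the log2 fold change of SLC16A1 was -0.51, and -0.11 with spike-in scaling. SLC16A3 encodes MCT4, the carrier that exports lactate from glycolytic cells, and its signal was 591 and 27330 without and with tetracycline in TR9_MeTA14 and 786 and 5999 in TR15_MeTA5. Both +Tet arrays lay far above both -Tet arrays, by 36.7-fold in TR9_MeTA14 and 5.16-fold in TR15_MeTA5. By limma, the log2 change of SLC16A3 over both lines was 3.78 ± 0.73 (SE), with an adjusted p of 0.103, the log2 change being 5.20 in TR9_MeTA14 and 2.37 in TR15_MeTA5. SLC16A1 encodes MCT1, which takes up or releases lactate, and its signal was 332 without and 65.4 with tetracycline in TR9_MeTA14, and 110 and 114 in TR15_MeTA5. It was 6.38-fold lower in TR9_MeTA14 and 1.42-fold lower in TR15_MeTA5, and with normexp its log2 fold change in TR9_MeTA14 was -1.74 in place of -2.67. SLC2A1, the glucose carrier GLUT1 and a HIF target, had nearly equal signals on the arrays of each line before scaling, and its log2 fold change was -0.34 in TR9_MeTA14 and -0.61 in TR15_MeTA5.

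In the upper pathway, the paralogs of the rate-setting enzymes differed among themselves. HK2, the hexokinase typical of tumours, had signals of 3889 without and 603 with tetracycline in TR9_MeTA14, and of 1627 and 1378 in TR15_MeTA5, which is 8.12-fold and 1.75-fold lower. A further HK2 probe was not above background on any array. HK1, the hexokinase present in most tissues, gave 1593 and 2129 on the untreated and treated TR9_MeTA14 arrays and 722 and 1170 on those of TR15_MeTA5, and its log2 fold changes were 0.09 and 0.13. The lowest HK2 signal was thus that of the treated TR9_MeTA14 array, where HK1 differed little from its untreated level.

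Phosphofructokinase, which commits sugar to glycolysis, has 3 subunit genes. PFKP, the platelet-type subunit, had a signal of 9323 that was 26143 with tetracycline in TR9_MeTA14, and 11402 that was 21040 in TR15_MeTA5, so that it was 2.23-fold and 1.25-fold higher, and a further probe gave 2.39-fold and 1.37-fold. PFKM, the muscle-type subunit, had signals of 10452 without and 4839 with tetracycline in TR9_MeTA14, and of 3854 and 4516 in TR15_MeTA5. PFKM was 2.72-fold lower in TR9_MeTA14 and 1.26-fold lower in TR15_MeTA5, the latter turning to a log2 fold change of 0.07 with spike-in scaling. PFKL, the liver-type subunit, gave 4824 and 5802 on the untreated and treated TR9_MeTA14 arrays and 3219 and 4229 on those of TR15_MeTA5, and its log2 fold changes of -0.07 and -0.17 changed sign with spike-in scaling. The subunit genes thus spread on both sides of 0 in TR9_MeTA14, where the muscle-type was lower and the platelet-type higher. The remaining genes of the upper pathway were GPI, which interconverts the sugar phosphates, TPI1, which interconverts the triose phosphates, and the aldolase ALDOC. GPI had log2 fold changes of -0.98 and -0.49, TPI1 of -0.76 and -0.75, and ALDOC of -0.03 and -0.99, all within 2-fold in both lines.

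All 7 genes of the lower pathway had a log2 fold change below 0 in both lines, with a median of -1.03 in TR9_MeTA14 and -0.73 in TR15_MeTA5. Of them, 4 were at least 2-fold lower in TR9_MeTA14 and 2 in TR15_MeTA5, beside 15.1% and 2.21% of all genes. With quantile normalization and with normexp, GAPDH and PGAM1 turned to values above 0 in TR9_MeTA14, so that 5 of 7 stayed below 0, while all 7 stayed below 0 in TR15_MeTA5 under each scaling. These are among the brightest probes: 10 genes of the set belonged to the brightest 5% of genes, of which 6 were from the lower pathway. Over all 974 genes of this bright class the median log2 fold change was itself -0.30 in TR9_MeTA14 and -0.29 in TR15_MeTA5, and -0.08 and -0.03 with quantile normalization. GAPDH was at -0.55 and -0.54 after scaling to the 75th percentile, and at 0.19 and -0.11 with quantile normalization, where its TR9_MeTA14 value lay above the median of the class. For GAPDH, PGK1, PGAM1, ENO1 and LDHA, the genome holds processed pseudogenes whose transcripts could share the probe, which makes their values uncertain.

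LDHA, which makes the subunit of lactate dehydrogenase that favours lactate, was lower on the +Tet array of both lines. Its signal was 21318 without and 9638 with tetracycline in TR9_MeTA14, and 35620 and 23449 in TR15_MeTA5, which is 2.78-fold and 2.25-fold lower, and a further probe gave -1.43 and -1.24 on the log2 scale. By limma, the log2 change over both lines was -1.32 ± 0.28 (SE) with an adjusted p of 0.123. In TR15_MeTA5 it was under 2-fold with quantile normalization, spike-in scaling and normexp, at log2 fold changes of -0.86, -0.77 and -0.82.

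LDHB, which makes the subunit that favours pyruvate, had a signal of 1299 that was 162 with tetracycline in TR9_MeTA14, and 7916 that was 8512 in TR15_MeTA5. It was 10.1-fold lower with tetracycline in TR9_MeTA14 and 1.38-fold lower in TR15_MeTA5, and a further probe gave log2 fold changes of -3.23 and -0.65. The TR9_MeTA14 arrays lay below both TR15_MeTA5 arrays in either condition.

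ENO1, the enolase of most tissues, had signals of 18828 without and 11048 with tetracycline in TR9_MeTA14, and of 21262 and 16868 in TR15_MeTA5, and was 2.14-fold and 1.86-fold lower. PKM, the pyruvate kinase of proliferating cells and muscle, gave 11869 and 7323 on the untreated and treated TR9_MeTA14 arrays and 10995 and 10573 on those of TR15_MeTA5, and was 2.04-fold and 1.54-fold lower. Both stood just past the cut-off in TR9_MeTA14 and were short of it with spike-in scaling, at log2 fold changes of -0.99 and -0.92, and PKM also with median scaling and normexp. PGK1, the first ATP-making enzyme of the pathway, had a signal of 18489 that was 16675 with tetracycline in TR9_MeTA14, and 24502 that was 17647 in TR15_MeTA5. It was 1.40-fold and 2.05-fold lower, and within 2-fold in TR15_MeTA5 with quantile normalization, spike-in scaling and normexp. PGAM1, the mutase between PGK1 and enolase, had log2 fold changes of -0.15 and -0.73.

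**Figure D2:**
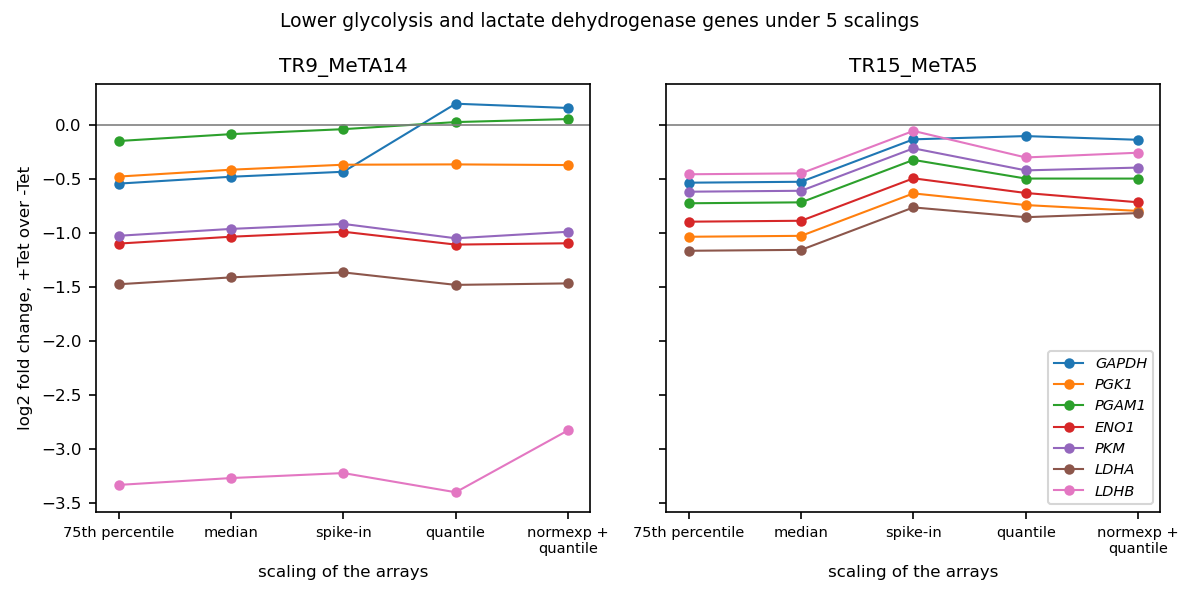
Log2 fold change with tetracycline (y axis) of the 7 lower-pathway genes under 5 ways of scaling the arrays (x axis), in TR9_MeTA14 (left) and TR15_MeTA5 (right), each from 1 array per condition. GAPDH and PGAM1 cross 0 in TR9_MeTA14 with quantile normalization and normexp, LDHB stays between -3.40 and -2.83 there, and in TR15_MeTA5 each value but that of GAPDH is closest to 0 with spike-in scaling.

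The enzymes that regulate the flow through the pathway were of both kinds. PFKFB3 makes fructose 2,6-bisphosphate, the strongest activator of phosphofructokinase, and its signals were 494 and 2427 on the untreated and treated TR9_MeTA14 arrays and 262 and 1270 on those of TR15_MeTA5. The +Tet arrays of both lines lay above both -Tet arrays, by 3.91-fold and 3.27-fold, and a dimmer probe gave 3.55-fold and 2.84-fold. By limma the log2 change of PFKFB3 was 1.84 ± 0.26 (SE) with an adjusted p of 0.0542, and it passed the threshold with quantile normalization, with spike-in scaling and without a filter on dim probes.

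PDK1, the kinase that blocks entry of pyruvate into mitochondria and a classical HIF-1 target, had signals of 1598 without and 242 with tetracycline in TR9_MeTA14, and of 971 and 689 in TR15_MeTA5. It was 8.32-fold and 2.08-fold lower with tetracycline, and in TR15_MeTA5 it was under 2-fold with spike-in scaling and normexp. PFKFB4, which belongs to the same enzyme family as PFKFB3, had log2 fold changes of 0.25 and -0.75.

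The oxygen-sensitive factors behaved differently from each other. EPAS1 encodes HIF-2α, and its signal was 57.6 without and 709 with tetracycline in TR9_MeTA14, and 136 and 1068 in TR15_MeTA5. The lowest +Tet array lay above the highest -Tet array, and the fold changes were 9.79 and 5.31. With normexp, the log2 fold change of EPAS1 in TR9_MeTA14 was 2.03 in place of 3.29. By limma the log2 change of EPAS1 was 2.85 ± 0.33 (SE) with an adjusted p of 0.0376, a call that was lost without cell line as a block and when only probes above background on all 4 arrays were tested. HIF1A encodes HIF-1α, and its signals were 586 and 629 on the untreated and treated TR9_MeTA14 arrays and 402 and 394 on those of TR15_MeTA5. These signals were nearly equal within each line, which gave log2 fold changes of -0.23 and -0.59 after scaling, and a further probe gave -0.34 and -0.35. RNA says nothing of the protein, which is the level at which oxygen acts on both factors.

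The prolyl hydroxylases that mark these factors also went apart. EGLN1 encodes PHD2, the main oxygen sensor, and its signal was 708 without and 397 with tetracycline in TR9_MeTA14, and 639 and 401 in TR15_MeTA5. It was 2.24-fold and 2.36-fold lower, nearly the same in both lines, with a limma log2 change of -1.20 ± 0.25 (SE) and an adjusted p of 0.123. With spike-in scaling the TR15_MeTA5 value was within 2-fold. EGLN3 encodes PHD3, itself induced by hypoxia, and its signals were 29.3 and 178 on the untreated and treated TR9_MeTA14 arrays and 17.7 and 61.4 on those of TR15_MeTA5, where the -Tet array was not well above background. It was 4.82-fold higher in TR9_MeTA14 and at least 2.35-fold higher in TR15_MeTA5. The limma log2 change of EGLN3 was 1.75 ± 0.40 (SE) with an adjusted p of 0.149. With normexp, which pulls dim probes together, both lines were within 2-fold.

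**Figure D3:**
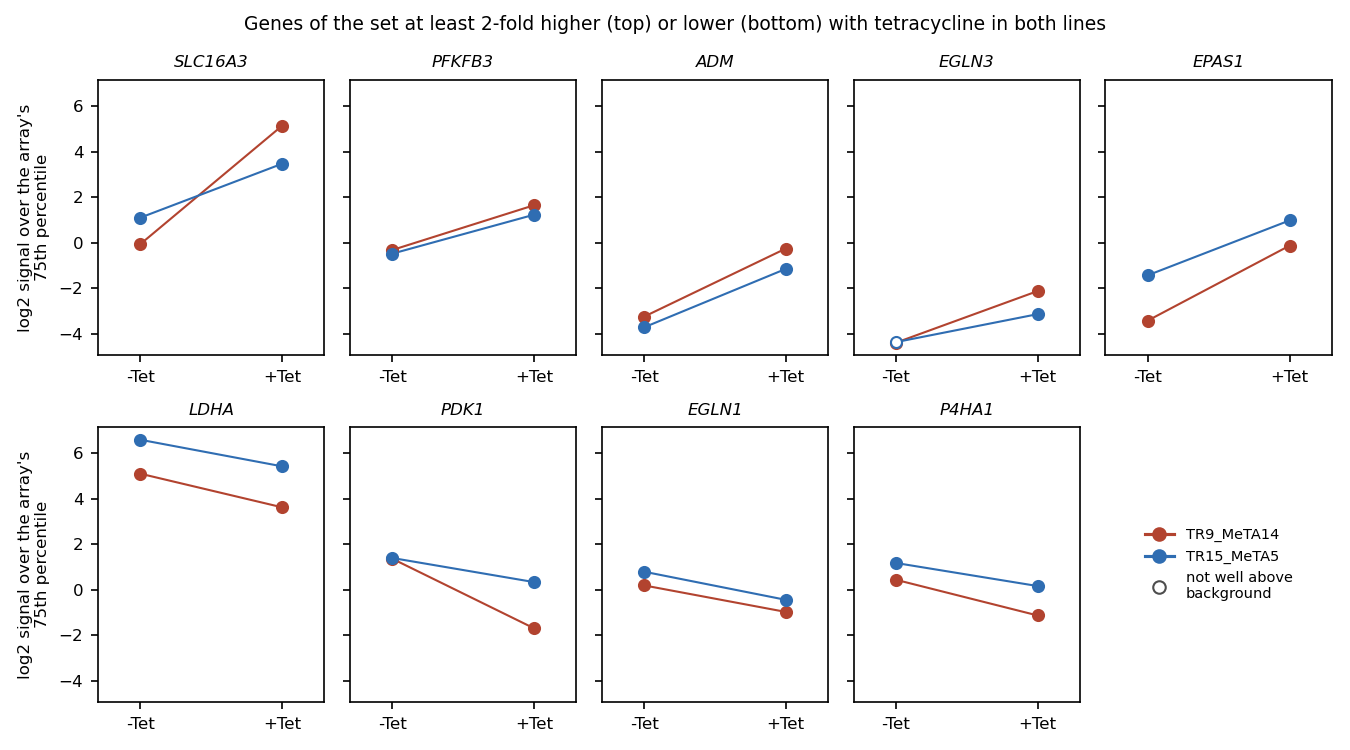
Signal on each of the 4 arrays as log2 over the array's 75th percentile (y axis) without and with tetracycline (x axis) for the 5 genes higher and the 4 genes lower in both lines, red for TR9_MeTA14 and blue for TR15_MeTA5. Levels can be compared within a panel only. The lines run upward in all 5 upper panels and downward in all 4 lower panels, and the open point of EGLN3 was not well above background.

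The 12 hypoxia-response targets had values on both sides of 0. Of the 11 with a fold, 2 were at least 2-fold higher and 3 lower in TR9_MeTA14. In TR15_MeTA5, 2 were higher and 1 lower. Over all genes, 16.8% were higher and 15.1% lower in TR9_MeTA14, and 9.77% and 2.21% in TR15_MeTA5. The share of higher targets in TR9_MeTA14 was thus near its background. ADM encodes adrenomedullin, a vessel-dilating peptide, and its signal was 64.8 without and 649 with tetracycline in TR9_MeTA14, and 27.8 and 244 in TR15_MeTA5. Both +Tet arrays lay above both -Tet arrays, by 7.96-fold and 5.93-fold. With normexp, the log2 fold changes of ADM were 1.96 and 1.48 in place of 2.99 and 2.57. By limma the log2 change of ADM was 2.78 ± 0.29 (SE) with an adjusted p of 0.0315, and ADM passed the threshold under each alternative fit.

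VEGFA, the growth factor of blood vessels and the best known HIF target, had lower signals with tetracycline. Its signal was 1000.3 without and 309 with tetracycline in TR9_MeTA14, and 561 and 532 in TR15_MeTA5, so that it was 4.07-fold and 1.56-fold lower, and a further probe gave log2 fold changes of -2.05 and -0.87. P4HA1, a collagen prolyl hydroxylase, gave 841 and 357 on the untreated and treated TR9_MeTA14 arrays and 833 and 610 on those of TR15_MeTA5, and was 2.97-fold and 2.02-fold lower. The TR15_MeTA5 value of P4HA1 was at the cut-off and under it with quantile normalization, spike-in scaling and normexp.

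MXI1, an antagonist of MYC, had a signal of 930 that was 227 with tetracycline in TR9_MeTA14, and 606 that was 759 in TR15_MeTA5. It was 5.15-fold lower in TR9_MeTA14, and its log2 fold change of -0.24 in TR15_MeTA5 turned to 0.16 with spike-in scaling. Its other 2 probes gave -2.29 and -2.62 in TR9_MeTA14 and -0.55 and -0.60 in TR15_MeTA5. ANKRD37, an ankyrin-repeat protein gene induced by hypoxia, had signals of 366 without and 1426 with tetracycline in TR9_MeTA14, and of 352 and 356 in TR15_MeTA5. Only its TR9_MeTA14 +Tet array stood out from the other 3 arrays, at a log2 fold change of 1.63, while that in TR15_MeTA5 was -0.55. CA12, a membrane carbonic anhydrase, gave 132 and 113 on the untreated and treated TR9_MeTA14 arrays and 13.7 and 47.0 on those of TR15_MeTA5, where the -Tet array was not well above background. It was 1.46-fold lower in TR9_MeTA14 and at least 2.06-fold higher in TR15_MeTA5, a bound that was under 2-fold with quantile normalization and normexp.

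The other 5 targets were within 2-fold in both lines. BNIP3 and BNIP3L mark mitochondria for autophagy, and their log2 fold changes were 0.12 for BNIP3 and -0.30 for BNIP3L in TR9_MeTA14, then -0.96 for BNIP3 and -0.81 for BNIP3L in TR15_MeTA5. NDRG1, a stress-induced gene that androgens also raise, had -0.21 and -0.86, the histone demethylase gene KDM3A had -0.06 and -0.53, and the collagen hydroxylase gene P4HA2 had 0.53 and -0.35.

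The lines differed in the level of many of these genes before tetracycline was added. On the untreated arrays, 10 of the 35 genes with a fold were at least 2-fold higher in TR15_MeTA5 than in TR9_MeTA14 and 1 was lower, where 8.16% of 13792 genes were higher and 5.19% lower. LDHB stood out, with a signal of 1299 in TR9_MeTA14 and of 7916 in TR15_MeTA5, which is 10.3-fold higher after scaling. EPAS1 was 3.98-fold higher in TR15_MeTA5, NDRG1 3.45-fold, LDHA 2.81-fold, BNIP3 2.75-fold, GAPDH 2.30-fold, SLC16A3 2.24-fold, PGK1 2.23-fold, PFKFB4 2.09-fold and PFKP 2.06-fold. CA12 was at least 5.07-fold lower. Of the 7 lower-pathway genes, 4 were at least 2-fold higher and the median log2 difference was 1.16, beside 0.12 over all genes. This ordering of the lines rests on the scaling, by alternatives chosen after seeing the data. With spike-in scaling, which put the median of the genes above background on all 4 arrays at -0.96 in place of 0.12, 1 gene of the set was at least 2-fold higher in TR15_MeTA5 and 13 were lower, and the median of the lower-pathway genes was 0.07. With quantile normalization 7 were higher and 1 lower, and with normexp 4 and 0.

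Over both conditions, limma gave LDHB a log2 difference between the lines of 4.80 ± 0.74 (SE) with an adjusted p of 0.250. None of the genes passed this test in either direction, in the set or among all 14464 tested, where 0% were called higher and 0% lower. At an unadjusted p below 0.05 there were 12 of the 36 in the set and 2317 of all genes. With tetracycline, the difference in LDHB widened to 6.23 on the log2 scale, while that in SLC16A3 turned from 1.16 to -1.67. A difference between the lines in the tetracycline effect has no test here, as the 4 arrays fill the design without any residual degree of freedom.

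**Figure D4:**
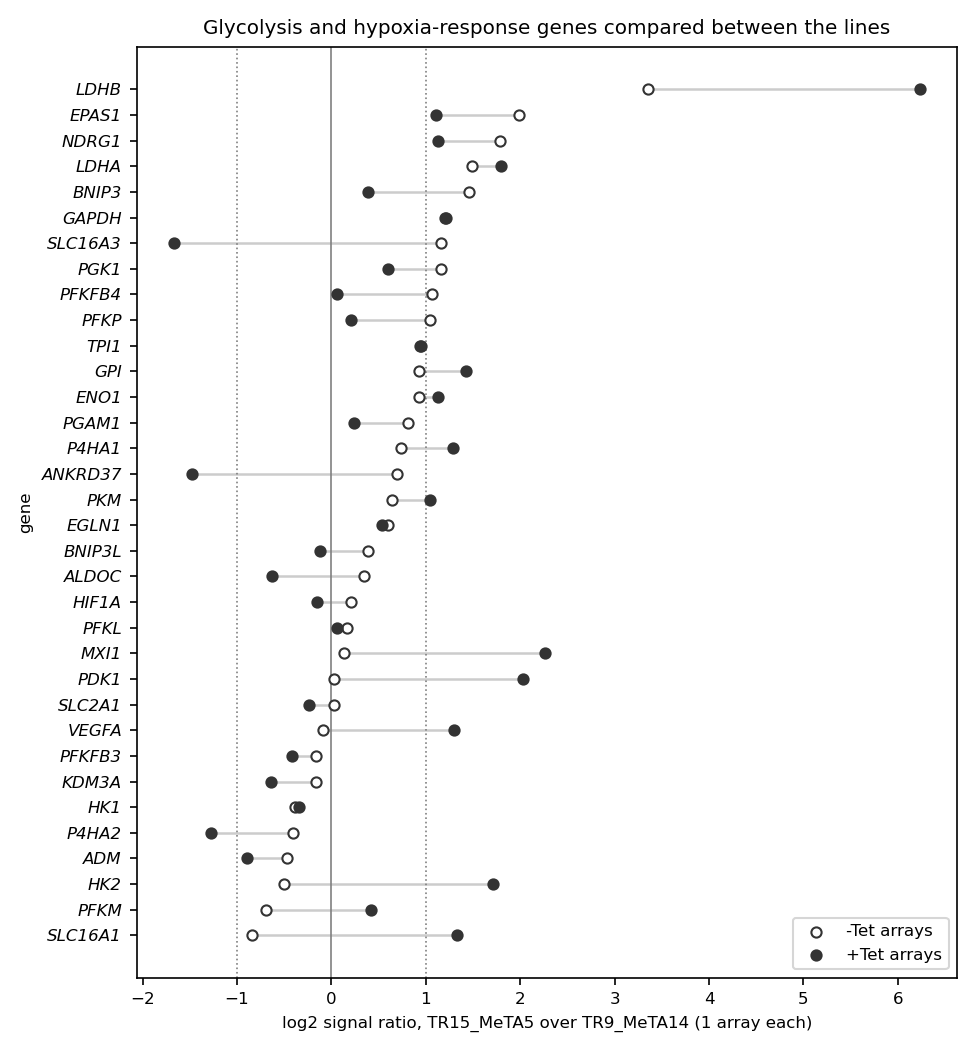
Log2 ratio of the signal in TR15_MeTA5 to that in TR9_MeTA14 (x axis) for the 34 genes measured on both untreated arrays (y axis), from 1 array each, with open points for the -Tet and filled points for the +Tet arrays. LDHB moves from 3.36 to 6.23 and SLC16A3 from 1.16 to -1.67, dotted lines mark 2-fold, and with spike-in scaling 8 open points would lie above 0 in place of 25.

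Related genes outside the set were read from lists of the same pathways. Among the 9 tissue-restricted isoenzymes and transporters with a fold in both lines, 0 were at least 2-fold lower in both, beside 0.837% of all genes. SLC2A3, the neuronal glucose carrier GLUT3, had signals of 3.42 without and 40.0 with tetracycline in TR9_MeTA14, and of 5.22 and 99.7 in TR15_MeTA5, with neither -Tet array above background. SLC2A3 was at least 2.05-fold and at least 4.37-fold higher, with a limma adjusted p of 0.0393 from a fit that took the -Tet signals below background as they were.

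Of 18 genes of pyruvate entry and gluconeogenesis, 15 had a fold in both lines. Of these 15, 1 was at least 2-fold higher in both lines and 1 lower, beside 8.21% and 0.837% of all genes. FBP1, the gluconeogenic enzyme that opposes phosphofructokinase, gave 7.97 and 432 on the untreated and treated TR9_MeTA14 arrays and 5.19 and 142 on those of TR15_MeTA5, with neither -Tet array above background. FBP1 was at least 22.2-fold and at least 6.22-fold higher, and rose by limma with an adjusted p of 0.0243. That fit took the -Tet signals below background as they were. PCK2, the mitochondrial enzyme that makes phosphoenolpyruvate, had a signal of 4460 that was 956 with tetracycline in TR9_MeTA14, and 1323 that was 849 in TR15_MeTA5, which is 5.87-fold and 2.30-fold lower, with a limma adjusted p of 0.133. Of 15 partners of the HIF pathway, including ARNT, VHL and the coactivators, 0 were at least 2-fold changed one way in both lines. Over all genes, 8.21% were higher and 0.837% lower in both. None of the 15 passed limma, where 3.22% of all genes rose and 0.0138% fell. At an unadjusted p below 0.05, 1 of the 15 was lower, beside 1205 of 14464 genes.

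Of 31 other hypoxia-inducible genes with a probe, 26 had a fold in both lines. Past 2-fold on the higher side in both were 2 of these, SLC2A3 again and ANGPTL4, and on the lower side 2, STC2 and ERO1A. Over all genes, 8.21% were higher and 0.837% lower in both lines, so that the share of higher genes was near its background. ANGPTL4, an inhibitor of lipoprotein lipase, had signals of 31.4 without and 2590 with tetracycline in TR9_MeTA14, and of 11.4 and 1248 in TR15_MeTA5, where the -Tet array was not above background. ANGPTL4 was 65.6-fold and at least 54.7-fold higher, with a limma adjusted p of 0.0139. STC2, a secreted glycoprotein gene of the stress response, gave 547 and 32.3 on the untreated and treated TR9_MeTA14 arrays and 123 and 82.9 on those of TR15_MeTA5, which is 21.3-fold and 2.20-fold lower. ERO1A, the oxidase that forms disulphide bonds in the endoplasmic reticulum, had a signal of 637 that was 115 with tetracycline in TR9_MeTA14, and 513 that was 368 in TR15_MeTA5, which is 6.97-fold and 2.06-fold lower. Both decreases missed the threshold by limma, with adjusted p of 0.222 for STC2 and 0.182 for ERO1A.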

How the data were processed

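Cy3-labeled cRNA made from total RNA of both lines, treated for 4 days or untreated, was hybridized to 4 arrays, 1 per condition. All lay on 1 slide, which leaves no slide effect to test. The authors extracted the images with Agilent Feature Extraction (version 10.7.3.1 per the file headers, 9.5.1 in the submitters' processing notes) and deposited the intensity of every spot, background-subtracted and not normalized between arrays. The deposited series table held identical values. The normalization used in the study is not given in the sources used here.

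From these intensities, outlier spots (255 to 344 per array) were left out, log2 values were averaged over the spots of a probe, and the 75th percentile over 34127 non-control probes was subtracted. Between 20552 and 24206 probes per array were well above background, and no spot was saturated. A lower bound used, on the dim array, the larger of that probe's signal and the smallest signal called well above background (13.9 to 19.2). Probes were named by RefSeq accession through a table on GRCh38.p14, which paired 74.5% with 1 gene. The array was annotated on hg19, so no coordinates of probes are given. limma 3.58.1 in R 4.3.3 was fitted to all probes above background on at least 2 arrays, blocking on cell line and with an intensity trend, and p-values were adjusted over these probes by Benjamini-Hochberg. The fit was tested on simulated data. Python 3.11.15 with numpy 2.4.6, pandas 2.3.3 and matplotlib 3.10.9 was used for the rest.

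The genes, lists and tests were chosen with earlier results of these data known. Signals on every array are given for genes at least 2-fold changed in at least 1 line or passing limma, and for the HIF regulators and rate-setting enzymes. From the related lists, genes changed at least 2-fold the same way in both lines are named, other than a result not reported here. Alternatives were scaling by quantile normalization, by the median of probes above background or by 8 spike-in probes, normexp with an offset of 50 followed by quantile normalization, a filter on all 4 arrays, no filter, the mean over probes, a 1.5-fold cut-off, no block and no trend.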

Additional observations from a re-analysis of the deposited data

Results flagged for a closer look

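A handful of genes had log2 fold changes of opposite sign in the 2 lines. The difference, TR15_MeTA5 minus TR9_MeTA14, was -2.18 for ANKRD37, -1.08 for BNIP3, -0.998 for PFKFB4 and -0.88 for P4HA2, which were above 0 in TR9_MeTA14 and below 0 in TR15_MeTA5. It was 1.59 for CA12, which was below 0 in TR9_MeTA14 and above 0 in TR15_MeTA5. None of these differences was tested, since each rests on 1 array per condition, and the sign of P4HA2 in TR15_MeTA5 turned with spike-in scaling.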

How the results depend on the processing

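Of the 36 genes with a fold, 31 kept the sign of their log2 fold change in TR9_MeTA14 and 32 in TR15_MeTA5 under the 4 other scalings. The exceptions were PFKL, ALDOC, GAPDH, PGAM1 and KDM3A in TR9_MeTA14 and PFKL, PFKM, P4HA2 and MXI1 in TR15_MeTA5. The counts of genes at least 2-fold higher in either or both lines and of genes lower in TR9_MeTA14 moved by no more than 1.5 times under any alternative. The 5 genes lower in TR15_MeTA5 became 2 with quantile normalization, 0 with spike-in scaling, 1 with normexp and 18 at a cut-off of 1.5-fold, and the 4 genes lower in both lines became 2, 0, 1 and 9. The median log2 fold change of the set with spike-in scaling was -0.21 in TR9_MeTA14 and -0.17 in TR15_MeTA5, and with normexp it was -0.40 in TR15_MeTA5. Spike-in scaling moved the median of all genes above background on all 4 arrays from -0.19 to 0.21 in TR15_MeTA5. The 2 genes that rose by limma became 4 with spike-in scaling or without a filter, by adding SLC16A3 and PFKFB3, and 1 (ADM) with the filter on all 4 arrays or without the block. Chosen after seeing the data, the same scalings were applied to the untreated arrays: the 10 genes higher in TR15_MeTA5 became 1 with spike-in scaling and 4 with normexp, and the 1 lower became 13 and 0. The limma fit paired the arrays of each line through the block. Each group holds 1 array, so replicate numbers gave no further pairing and no replicate could be left out. Signal over background limits CA9, and CA12 and EGLN3 in TR15_MeTA5.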
